A study of Rattus norvegicus with 8 samples.

Results

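The cytochrome P450 genes of families 2 and 3 were examined in rat liver. They were taken as every array probe whose RefSeq accession maps to a rat symbol starting with Cyp2 or Cyp3, a subfamily letter and a number. RefSeq lists 55 such symbols, and 32 of them had a probe on the array, 41 of 41012 probes in all. After the filter for signal above background, 30 of the 32 were tested among 25122 genes, 26 of family 2 and 4 of family 3. Liver RNA was measured on 4 Eucommia arrays and 4 Control arrays, and every n given below counts arrays. Eucommia rats drank an extract of Eucommia ulmoides leaves for 5 weeks, and Control rats did not. Both groups were male Wistar/ST rats on a high-fat diet with water high in fructose, so no lean or chow-fed group enters these comparisons. Their age is not given in the labels. The comparison asks which of these genes differed in liver RNA with the extract on that diet.

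Cytochrome P450 enzymes are haem proteins of the endoplasmic reticulum that oxidise small lipophilic molecules with electrons passed on by NADPH-cytochrome P450 reductase. Families 2 and 3 carry out much of the hepatic oxidation of drugs, steroids, retinoids and fatty acids. Drugs and bile acids raise many Cyp2b, Cyp2c and Cyp3a genes through the nuclear receptors CAR and PXR. In rats the pituitary's sex-specific pattern of growth hormone release makes several of them male-biased (Cyp2c11, Cyp2c13, Cyp2a2, Cyp3a2) or female-biased (Cyp2c12, Cyp2c7).

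The sequences that follow are the 250 bases before the transcription start of the 4 genes whose Eucommia and Control arrays did not overlap, shown because the gene-level results turn on these genes. They are RefSeq promoters of assembly GRCr8, read 5′ to 3′ on the gene's strand, and capitals mark matches to the motifs described after them.
Cyp2s1, chr1:90453074-90453323, minus strand: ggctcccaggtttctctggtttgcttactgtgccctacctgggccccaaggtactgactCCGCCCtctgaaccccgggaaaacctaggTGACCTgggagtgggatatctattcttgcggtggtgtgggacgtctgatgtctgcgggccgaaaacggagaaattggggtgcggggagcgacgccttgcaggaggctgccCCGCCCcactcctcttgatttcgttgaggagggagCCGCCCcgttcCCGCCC
Cyp2j3, chr5:116360500-116360749, minus strand: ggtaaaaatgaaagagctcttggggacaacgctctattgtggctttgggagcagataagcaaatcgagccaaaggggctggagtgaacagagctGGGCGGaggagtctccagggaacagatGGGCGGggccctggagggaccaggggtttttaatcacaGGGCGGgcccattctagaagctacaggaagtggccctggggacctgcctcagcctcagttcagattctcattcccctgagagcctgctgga
Cyp2b3, chr1:90780242-90780491, plus strand: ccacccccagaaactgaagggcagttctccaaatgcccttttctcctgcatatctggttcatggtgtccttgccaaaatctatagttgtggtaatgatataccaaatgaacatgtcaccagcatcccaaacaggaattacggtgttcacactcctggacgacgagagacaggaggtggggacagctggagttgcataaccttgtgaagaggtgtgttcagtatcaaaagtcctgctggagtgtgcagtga
Cyp2c7, chr1:247966144-247966393, plus strand: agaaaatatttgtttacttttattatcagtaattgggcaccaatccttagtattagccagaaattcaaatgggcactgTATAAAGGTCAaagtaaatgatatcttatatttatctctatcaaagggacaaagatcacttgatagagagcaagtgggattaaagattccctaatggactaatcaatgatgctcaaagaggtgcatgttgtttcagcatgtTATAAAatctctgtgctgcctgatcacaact

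Of these windows, Cyp2s1 was the richest in G and C at 62.4%, followed by Cyp2j3 at 56.8%, Cyp2b3 at 48.0% and Cyp2c7 at 34.0%, where the median of 33469 RefSeq promoters was 51.2%. Both strands were searched for a TATA box (TATAAA), a GC box (GGGCGG), a nuclear receptor half-site (AGGTCA), an Ah receptor core (GCGTG) and a STAT5 site (TTCNNNGAA). Cyp2s1 held 4 GC boxes and 1 half-site, and Cyp2j3 held 3 GC boxes. Cyp2c7 held 2 TATA boxes, 1 of them starting 31 bases before the start, and 1 half-site that overlaps the other TATA match. Cyp2b3 held none of these letters. GC boxes occur in 30.5% of all promoters, TATA boxes in 12.9% and half-sites in 14.1%. Among the 28 members with a promoter entry, 10 held a TATA box, 9 a GC box, 10 a half-site, 3 an Ah receptor core (25.9% of all promoters) and 2 a STAT5 site (7.7%).

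Expression values are log2 processed signals minus the 75th percentile of their array, so 0 is the signal at that percentile, and a difference is Eucommia minus Control on this log2 scale. Of the 30 members tested, 1 rose (Cyp2s1), 2 fell (Cyp2j3 and Cyp2b3) and 27 did not pass limma's test at an adjusted p of 0.05. Over all genes 18.4% rose and 6.17% fell, 24.6% in all. Of all these calls 74.9% were higher, a split that was 58.4% with quantile normalization, 64.8% with cyclic loess, 59.1% with normexp and 32.3% with median centring, which set the median of all genes at -0.24. The groups did not overlap in 4 members, against 28.5% of all genes. Most members are bright in liver: 27 lay above the 75th percentile on average. Of these 27, none rose, 2 fell and 3 had groups that did not overlap, where 3.73%, 5.96% and 17.1% of the 8960 genes at such signal did so. An unadjusted p under 0.05 by limma was found in 6 of the 30 members and 8976 of the 25122 genes. Above the 75th percentile it was found in 5 of the 27 members and 1823 of the 8960 genes. The median difference of the members was -0.038, within a range of -0.67 to 1.23, beside 0.02 for all genes and -0.04 for those above the 75th percentile. Values were negative in 21 members (70.0%), 47.4% of all genes and 57.7% of genes above the 75th percentile. That count moved with the processing: it was 15 with quantile normalization, 13 with normexp background correction and quantile normalization, and 28 with median centring. In whole-liver RNA, fewer cells of a type and less RNA per cell cannot be told apart.

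**Figure D1:**
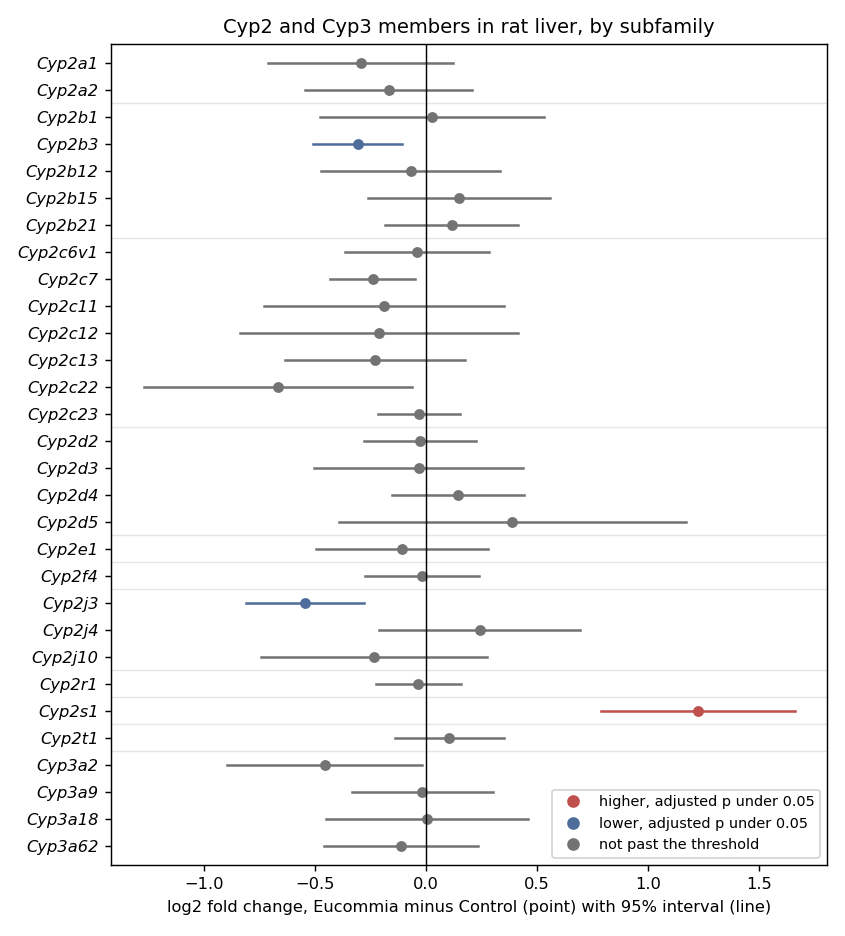
Difference of each tested member on the log2 scale, Eucommia minus Control, with its 95% interval from limma, grouped by subfamily. Cyp2s1 lies to the right of 0 at 1.23, and Cyp2j3 at -0.55 and Cyp2b3 at -0.31 lie to the left. The other 27 members did not pass the test.

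All 8 arrays showed hepatocyte RNA: the 12 hepatocyte markers tested (Alb, Ttr, Tf and others) were among the bright genes of both groups. By limma 0 were higher and 1 lower, with 11 of 12 values negative (median -0.16). The groups did not overlap in 4 of the 12, beside 17.1% of genes above the 75th percentile. An unadjusted p under 0.05 was found in 4. Their summed linear signals were 5750 to 6730 on Eucommia arrays and 6440 to 7370 on Control arrays. Spots well above background made up 69.3% to 71.9% of each Eucommia array and 58.95% to 61.5% of each Control array. The lowest signal counted as well above background was 5.69 to 6.05 on Eucommia arrays and 11.19 to 13.67 on Control arrays. Counts of arrays above background therefore do not compare the groups at the same signal. Arrays correlated at 0.990 to 0.994 within the Eucommia group, 0.985 to 0.989 within the Control group and 0.962 to 0.973 between the groups. The Eucommia arrays shared 1 slide and scan and the Control arrays shared another, and an effect of slide or scan cannot be told apart from one of the extract here. Markers of other cells differed in part: 0 of 11 Kupffer cell and macrophage markers passed by limma (2 at an unadjusted p under 0.05), with all 11 values negative (median -0.45) and summed linear signals of 93.8 to 183 on Eucommia arrays and 116 to 207 on Control arrays. For other lists the counts past the test were 1 higher of 5 endothelial (Cdh5), 1 higher of 7 T and NK cell (Cd3d), 2 higher of 3 muscle and 0 of 2 intestinal markers by limma (0 also at an unadjusted p under 0.05). Negative values numbered 3 of the 5 endothelial (median -0.17), 4 of the 7 T and NK cell (median 0) and 0 of the 3 muscle markers. The endothelial markers summed to 65.7 to 76.5 on Eucommia arrays and 73.6 to 89.4 on Control arrays. T and NK cell markers summed to 3.89 to 4.82 on Eucommia arrays and 2.72 to 4.29 on Control arrays. Of 9 stellate cell markers 1 rose (Col1a1), 4 had an unadjusted p under 0.05 and 8 values were positive (median 0.34), with summed signals of 31.4 to 39.6 on Eucommia arrays and 21.5 to 33 on Control arrays. The Col1a1 call (0.83) was lost with the mean over its probes (0.31). Beside these lists, 8976 of all 25122 genes had an unadjusted p under 0.05 by limma. The part of these cells in the P450 results was not tested.

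Cyp2s1 was the member that rose. It encodes an enzyme known mainly from epithelia outside the liver, which oxidises retinoids and eicosanoids and is induced through the Ah receptor. Its log2 signals were -2.37, -2.14, -2.94 and -2.03 on the Eucommia arrays, against -3.79, -3.48, -3.53 and -3.58 on the Control arrays. Every Eucommia array lay above every Control array, and Eucommia 3 was the lowest of its group. Cyp2s1 averaged -2.37 ± 0.40 in Eucommia livers and -3.59 ± 0.14 in Control livers (SD, n = 4 each), a 2.34-fold higher signal. The log2 difference was 1.23 with a standard error of 0.19, a 95% interval of 0.79 to 1.66 and an adjusted p of 0.00144 by limma. The call held under all 22 alternative settings, among which the deposited series table repeats the main values. The difference fell to 0.40 with normexp correction, an offset of 50 and quantile normalization (adjusted p = 0.0155 by limma).

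Cyp2s1 was dim, well above background on all 8 arrays but below the 75th percentile. Among the 7021 genes with a mean log2 signal from -4 to -2, 28.1% rose and 6.78% fell. Some of these genes passed the filter through the Eucommia arrays alone, unlike Cyp2s1, so the 28.1% is not a like comparison. At every signal level together 4621 of 25122 genes rose, and 2318 of 20096 did where all 8 arrays had to be above background. Of 6 cholangiocyte markers, Cftr rose and Epcam fell, with the Epcam call lost without Eucommia 2 (-0.48). Cftr was well above background on 4 Eucommia and 0 Control arrays, so it passed the filter through the Eucommia arrays alone. The summed linear signal of the 6 markers was 2.34 to 2.72 on Eucommia arrays and 2.39 to 3.14 on Control arrays. Intestinal markers summed to 2.21 to 3.35 on Eucommia arrays and 1.49 to 2.68 on Control arrays. Of 7 pancreatic acinar markers tested, Ctrb1, Cela2a, Cel and Prss2 rose, with sums of 3.0 to 4.27 on Eucommia arrays and 1.85 to 2.06 on Control arrays. The Prss2 call (0.33) was lost with quantile normalization (0.26), median centring (0.07) and normexp (0.11) and without Eucommia 2 or 3 or Control 1, 2 or 3 (0.28 to 0.35). Of the acinar genes not tested, Cpa1 was well above background on 2 arrays, Cela1 on 1, and Prss1, Cela3b and Clps on 0. Muscle markers summed to 1.25 to 1.42 on Eucommia arrays and 0.777 to 1.05 on Control arrays, with Acta1, Ckm and Myh4 above background on none. The part of these cell types in the value of Cyp2s1 was not tested.

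**Figure D2:**
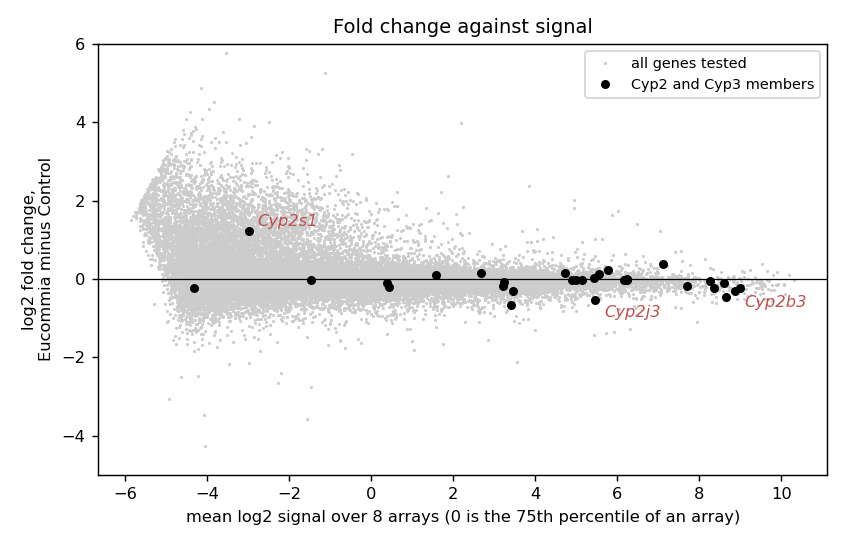
Difference of every tested gene on the log2 scale, Eucommia minus Control, against its mean log2 signal, with the members marked. Cyp2s1, at a mean signal of -2.98, sits among dim genes of which 28.1% rose. Some of those dim genes were above background on Eucommia arrays alone. A mean signal above 0, where 3.73% rose and 5.96% fell, was found for 27 of the 30 members.

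Other dim members did not pass or could not be tested. Cyp2j10 was well above background on 4 Eucommia and 3 Control arrays and differed by -0.23 without passing the test. A pair of members, Cyp2a3 and Cyp2g1, was on the array but not tested. Cyp2a3, known from nasal and lung tissue, was well above background on 0 of 8 arrays. Cyp2g1, known from olfactory mucosa, ranged from -7.13 to -6.00 on the Eucommia arrays, against -2.25 on Control 3, the one array well above background, and -6.52 to -5.51 on the other Control arrays.

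Cyp2j genes encode epoxygenases of arachidonic acid. Cyp2j3, a form of liver and heart, fell in Eucommia livers. Its log2 signals were 4.96, 5.17, 5.26 and 5.36 on the Eucommia arrays, against 5.64, 5.63, 5.92 and 5.73 on the Control arrays. The highest Eucommia array stayed below the lowest Control array. Cyp2j3 averaged 5.19 ± 0.17 in Eucommia livers and 5.73 ± 0.14 in Control livers (SD, n = 4 each), 0.685 of the Control signal. The difference was -0.55 with a standard error of 0.12, a 95% interval of -0.81 to -0.28 and an adjusted p of 0.00825 by limma. It passed under all 22 alternatives, at -0.80 to -0.35. The gene's other probe differed by -0.15 ± 0.11 (standard error) and did not pass (adjusted p = 0.349 by limma over all probes).

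Cyp2j4, known from rat intestine and liver, did not pass the test. It gave 5.46, 5.67, 6.39 and 6.11 on the Eucommia arrays and 5.84, 5.55, 5.54 and 5.74 on the Control arrays, so the groups overlapped. Its difference was 0.24 with a 95% interval of -0.21 to 0.69 (adjusted p = 0.437 by limma). The difference between the changes of Cyp2j3 and Cyp2j4 was -0.79, with an exact 2-sided permutation p of 0.0286, the smallest that 70 splits allow, and 0.0858 after adjustment over the 6 pairs compared within subfamilies. Cyp2j3 and Cyp2j10 differed by -0.31 in their changes (exact permutation p = 0.343). These pairs were picked after the called members were known, and neither passed. A pair alone cannot pass after this adjustment, so the test cannot decide whether the changes differ.

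Cyp2b genes include the classical phenobarbital-induced enzymes of rat liver, controlled by CAR. Of 5 tested, Cyp2b3 fell and the other 4 did not pass, with a median difference of 0.03. Cyp2b3, a constitutive liver form not known as phenobarbital-inducible, gave 8.67, 8.78, 8.72 and 8.73 on the Eucommia arrays, against 8.89, 9.01, 9.09 and 9.16 on the Control arrays. The Eucommia arrays were tightly grouped and all lay below the Control arrays. Cyp2b3 averaged 8.73 ± 0.04 in Eucommia livers and 9.04 ± 0.11 in Control livers (SD, n = 4 each), 0.808 of the Control signal. Its difference was -0.31 with a standard error of 0.09, a 95% interval of -0.51 to -0.11 and an adjusted p of 0.0341 by limma. This call was close to the threshold: it was lost under 11 of 22 alternatives, among them quantile normalization (-0.19, adjusted p = 0.141 by limma) and leaving out any 1 array other than Control 1 (adjusted p of 0.0560 to 0.0874 by limma).

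Cyp2b1, the main phenobarbital-induced form, gave 5.32, 5.11, 5.67 and 5.65 on the Eucommia arrays and 5.26, 5.05, 5.31 and 6.03 on the Control arrays. The groups overlapped, with Control 4 above every other array, and the difference was 0.03 with a 95% interval of -0.48 to 0.53 (adjusted p = 0.949 by limma). The 4 probes of Cyp2b1 differed in sign, with 3 negative, from -0.32 to 0.03, and none passed. Cyp2b12 (-0.07), Cyp2b15 (0.15) and Cyp2b21 (0.12) did not pass, and both probes of Cyp2b21 were positive. The change of Cyp2b3 was lower than that of each of the other 4 by 0.24 to 0.46. None of these differences passed, at adjusted exact permutation p of 0.0858 to 0.24. The smallest exact permutation p is 0.0286, so a pair alone cannot pass after adjustment over 6 pairs. These pairs too were picked after the calls, and the test cannot decide whether the changes differ. Genes of this subfamily are close in sequence, and a probe may bind transcripts of more than its named gene, which holds for Cyp2c, Cyp2d and Cyp3a as well and leaves the gene behind each value uncertain.

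Cyp2c is the largest subfamily here, and in rats it holds the genes most strongly set by sex and growth hormone. By limma 0 of its 7 tested genes passed. An unadjusted p under 0.05 was found in 2 of them, beside 1823 of the 8960 genes above the 75th percentile. All 7 differences were negative, with a median of -0.21 and a range of -0.67 to -0.03. The shared sign depended on the scaling: 6 of 7 were negative with quantile normalization, 5 with cyclic loess and 3 with normexp. Cyp2c7, a female-biased retinoid-oxidising form, was the one Cyp2c gene without overlap. It gave 8.87, 8.80, 8.84 and 8.94 on the Eucommia arrays, against 8.99, 9.13, 9.12 and 9.17 on the Control arrays. Every Eucommia array was below every Control array, by a narrow gap. The difference was -0.24 with a standard error of 0.08 and a 95% interval of -0.43 to -0.05, and the adjusted p of 0.0688 by limma missed the threshold. All 4 Cyp2c7 probes were negative, from -0.36 to -0.11, and none passed over all probes, where 23.7% did. With normexp the difference of Cyp2c7 was 0.08, so its direction is not settled.

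**Figure D3:**
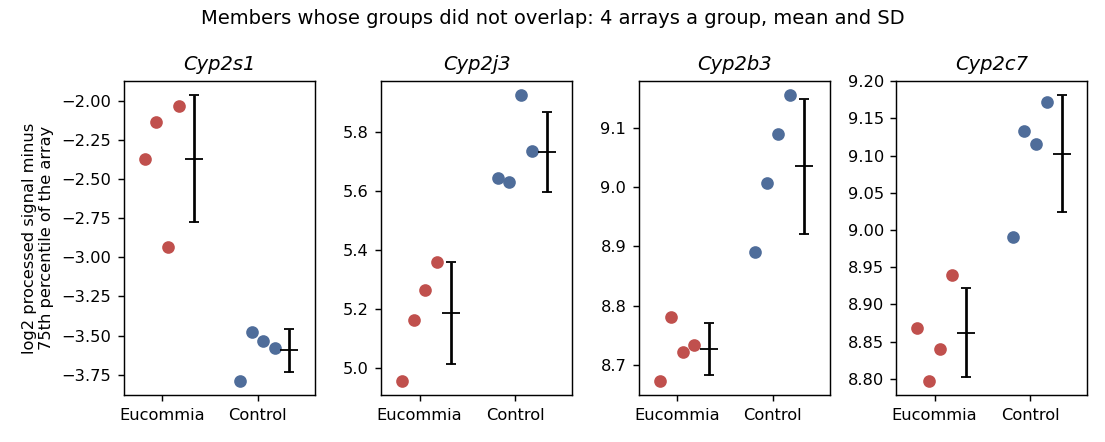
Log2 signal minus the array's 75th percentile on each array for the 4 members whose groups did not overlap, Eucommia left of Control, each gene on its own scale. Points are arrays, and the bars beside them are the group mean with the SD of 4 arrays. Cyp2s1 is higher on all 4 Eucommia arrays, and Cyp2j3, Cyp2b3 and Cyp2c7 are lower on all 4.

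Cyp2c22 had the most negative value among members. Its log2 signals were 3.16, 3.11, 2.96 and 3.05 on the Eucommia arrays and 2.93, 3.85, 3.76 and 4.41 on the Control arrays. Control 1 lay below all Eucommia arrays and the other Control arrays lay above them. The difference was -0.67 with a 95% interval of -1.27 to -0.06 (adjusted p = 0.107 by limma), and without Control 1 it was -0.94 and passed (adjusted p = 0.00411 by limma). The male-specific Cyp2c11, a steroid hydroxylase abundant in adult male liver, averaged 7.61 ± 0.15 in Eucommia livers and 7.80 ± 0.52 in Control livers (SD, n = 4 each), a difference of -0.19 with a 95% interval of -0.73 to 0.35. Cyp2c13, another male-specific form, differed by -0.23 and the female-specific Cyp2c12 by -0.21. Cyp2c6v1, expressed in both sexes, differed by -0.04 and Cyp2c23, an arachidonic acid epoxygenase, by -0.03. Male-biased and female-biased genes of the subfamily had negative values alike, and none of them passed.

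Cyp3a genes encode broad steroid and drug hydroxylases induced through PXR. By limma 0 of 4 passed, and 3 values were negative with a median of -0.07. An unadjusted p under 0.05 was found in 1 of them, beside 1823 of the 8960 genes above the 75th percentile. Cyp3a2, the male-specific adult form, gave 8.44, 8.20, 8.29 and 8.78 on the Eucommia arrays and 8.61, 8.57, 9.12 and 9.24 on the Control arrays. Only Eucommia 4 lay within the Control range. The difference was -0.46 with a standard error of 0.19 and a 95% interval of -0.90 to -0.02 (adjusted p = 0.127 by limma). Cyp3a62, a form known from the digestive tract, differed by -0.11, Cyp3a9 by -0.02 and Cyp3a18 by 0.0043.

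Cyp2d genes encode oxidases of amine drugs that respond little to inducers. By limma 0 of 4 passed, 0 also at an unadjusted p under 0.05, with 2 values negative and 2 positive and a median of 0.06. Cyp2d5 gave 7.52, 7.51, 7.02 and 7.19 on the Eucommia arrays and 7.63, 6.98, 5.84 and 7.23 on the Control arrays. Control 3 was far below the other arrays, and the difference of 0.39 (95% interval -0.39 to 1.17, adjusted p = 0.467 by limma) was 0.03 without it and 0.62 without Control 1. Cyp2d4 differed by 0.14, and Cyp2d2 and Cyp2d3 each by -0.03. All 4 values were positive with quantile normalization, cyclic loess and normexp.

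Cyp2a genes encode testosterone hydroxylases. Cyp2a1 gave 3.47, 2.84, 3.77 and 3.17 on the Eucommia arrays and 3.70, 3.49, 3.65 and 3.61 on the Control arrays. Eucommia arrays lay on both sides of the Control arrays, and the difference of -0.30 (95% interval -0.71 to 0.12) did not pass (adjusted p = 0.293 by limma). The male-biased Cyp2a2 differed by -0.17 (adjusted p = 0.514 by limma). Both values stayed negative under every alternative run.

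The remaining subfamilies had 1 tested gene each. Cyp2e1, which oxidises ethanol, acetone and fatty acids and is known to rise with fasting and diabetes, gave 8.46, 8.15, 8.71 and 8.86 on the Eucommia arrays and 8.63, 8.41, 8.89 and 8.69 on the Control arrays. The groups overlapped throughout, and the difference of -0.11 had a 95% interval of -0.50 to 0.28 (adjusted p = 0.693 by limma). Cyp2r1, a vitamin D hydroxylase of the liver, gave -1.49, -1.49, -1.44 and -1.49 on the Eucommia arrays and -1.39, -1.34, -1.48 and -1.55 on the Control arrays. Its difference of -0.03 had an interval of -0.22 to 0.15, among the narrowest of the members. Cyp2f4, a lung form that activates naphthalene, gave 5.05, 4.96, 4.80 and 5.11 on the Eucommia arrays and 4.85, 5.22, 4.94 and 4.99 on the Control arrays, a difference of -0.02. Cyp2t1 gave 1.47, 1.57, 1.74 and 1.75 on the Eucommia arrays and 1.47, 1.73, 1.46 and 1.45 on the Control arrays. Its difference was 0.10 with an interval of -0.14 to 0.35, and the groups overlapped.

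**Figure D4:**
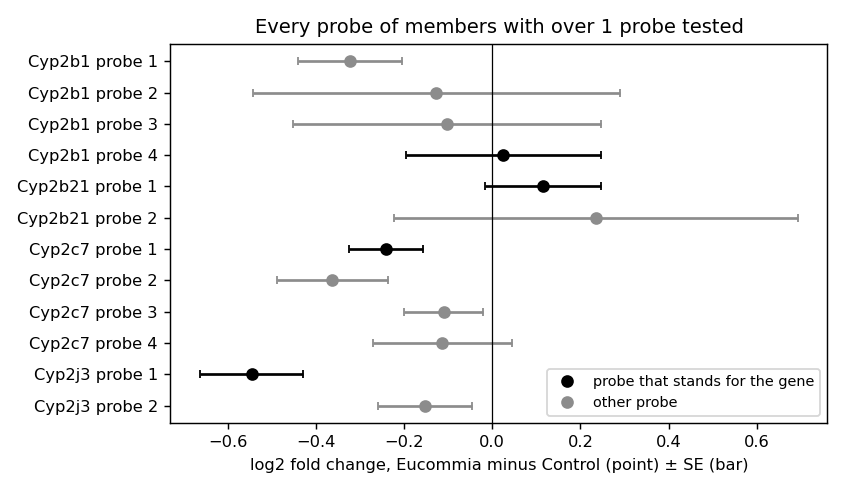
Difference of each tested probe of the members with more than 1 probe, on the log2 scale, Eucommia minus Control, with bars of 1 standard error. The 4 probes of Cyp2c7 and both of Cyp2j3 are negative, both of Cyp2b21 are positive, and those of Cyp2b1 lie on both sides of 0, from -0.32 to 0.03.

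Within a group, the array with the highest or lowest signal was often the same one for several members of a subfamily, though not in every subfamily or group. Control 4 was the highest Control array in 16 of 30 members (53.3%), beside 24.3% of genes above the 75th percentile. It was so in all 5 Cyp2b and in 6 of 7 Cyp2c genes. Control 1 was the lowest in 14 of 30 (46.7%), beside 36.5% of those genes, and in 6 of 7 Cyp2c genes. Control 3 was the lowest in all 4 Cyp2d genes. Among Eucommia arrays, Eucommia 2 was the lowest in 11 of 30 (36.7%), beside 26.5%, and in 3 of 4 Cyp3a genes. In other cases the extremes were split: the lowest Eucommia array of the Cyp2b genes was Eucommia 1 in 2, Eucommia 2 in 1 and Eucommia 4 in 2, and the lowest Control array of the Cyp3a genes was Control 1 in 2 and Control 2 in 2. The median SD of the members was 0.176 among Eucommia arrays and 0.247 among Control arrays, where genes above the 75th percentile had 0.135 among Eucommia arrays and 0.131 among Control arrays. No test of a shared order was run, and probes of close sequence may share signal.

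**Figure D5:**
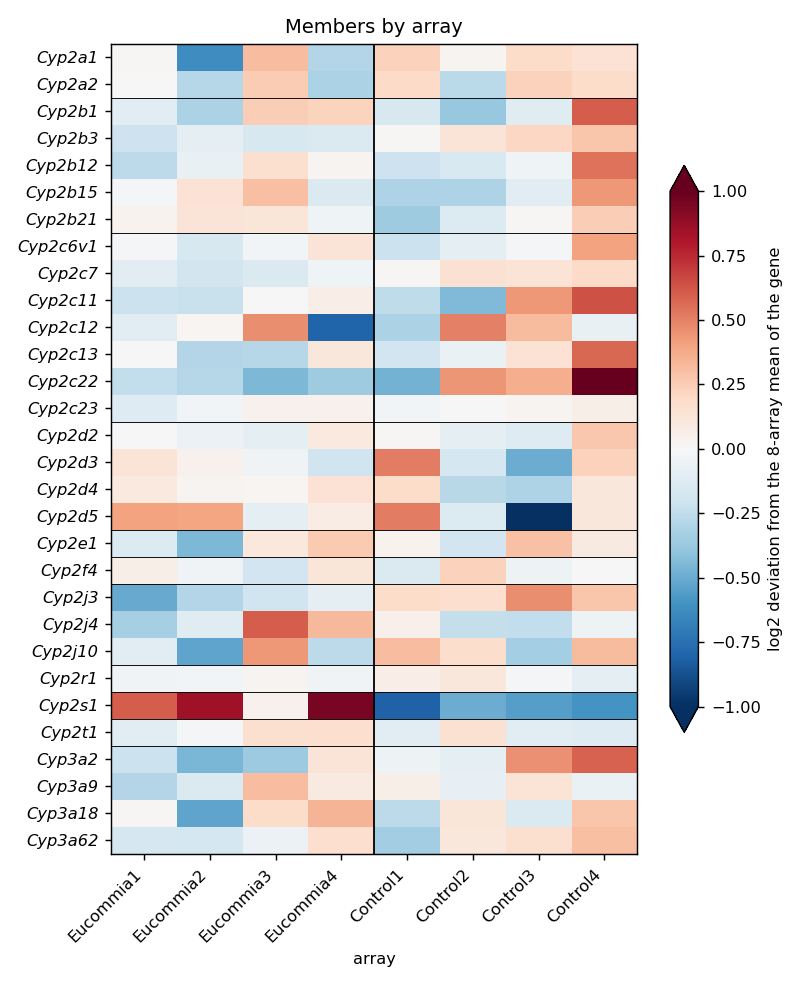
Deviation of each member on each array from that gene's mean over all 8 arrays, on the log2 scale, with Eucommia arrays left of Control arrays and genes grouped by subfamily. Control 4 is the highest Control array in all 5 Cyp2b and 6 of 7 Cyp2c genes, and Control 3 is the lowest in all 4 Cyp2d genes.

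The enzymes that supply P450s with electrons and haem were not called: 0 of 15 passed by limma, and 0 at an unadjusted p under 0.05, with a median of 0.04 and 0 genes without overlap. Por, the reductase that feeds every microsomal P450, differed by 0.16 (adjusted p = 0.578 by limma), and Alas1, the first enzyme of haem synthesis, by 0.19 (adjusted p = 0.477 by limma). Outside these families, 2 of 23 P450 genes tested rose and 2 fell. Cyp27b1, which activates vitamin D, averaged -0.94 ± 0.09 in Eucommia livers and -2.72 ± 0.11 in Control livers (SD, n = 4 each), a difference of 1.79 (adjusted p = 4.04e-06 by limma). Cyp11b3, which no Control array measured well above background, was at least 2.60-fold higher in Eucommia livers under the main scaling. Its call held under all 21 alternatives run for it, with a log2 difference as small as 0.35. The fatty acid hydroxylase Cyp4a3 fell by 0.30 on the log2 scale (adjusted p = 0.0336 by limma), a call lost without Eucommia 1, 2 or 3 or without Control 1 or 3 (-0.32 to -0.26) and with quantile normalization or cyclic loess (-0.23 each). The steroid hydroxylase Cyp21a1, also dim, fell by 0.67 on the log2 scale, a call lost with normexp (-0.14). Cyp1a1, the classical Ah receptor target, was well above background on no array.

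Receptors and transcription factors of P450 genes numbered 20 tested, with 1 higher, 2 lower and a median of -0.07. Neither PXR (Nr1i2, 0.17, adjusted p = 0.316 by limma) nor CAR (Nr1i3, -0.11, adjusted p = 0.763 by limma) passed. Nr1h4, the bile acid receptor FXR, rose by 0.39 (adjusted p = 0.0150 by limma), a call lost with median centring (0.13, adjusted p = 0.319 by limma). Foxa2, a hepatocyte transcription factor, fell by 0.65 on the log2 scale (adjusted p = 0.0259 by limma), and Nr3c1, the glucocorticoid receptor, fell by 0.45 (adjusted p = 0.0455 by limma). The Foxa2 call was lost without Eucommia 2, 3 or 4 or without Control 1, at -0.65 to -0.59. The Nr3c1 call was lost on leaving out any 1 array other than Control 4, at -0.49 to -0.43, and with quantile normalization (-0.40), cyclic loess (-0.40), a 75th percentile taken over probes detected on all arrays (-0.42) and a filter of 1 array above background (-0.45). Among 23 tested CAR and PXR targets outside families 2 and 3, 1 rose, Nqo1, the quinone reductase, which is also known as an Nrf2 target (1.07, adjusted p = 0.0154 by limma; 0.38 with normexp, adjusted p = 0.0715), and none fell, with a median of -0.01.

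The growth hormone axis, which sets the sex-biased members, had 13 genes tested, with 3 higher and 2 lower. Socs3, a feedback inhibitor of cytokine and growth hormone signalling, averaged -0.99 ± 0.14 in Eucommia livers and -2.84 ± 0.43 in Control livers (SD, n = 4 each), a difference of 1.85 (adjusted p = 0.000154 by limma). Cish, another such inhibitor, differed by 1.25 (adjusted p = 0.00062 by limma), and Socs1 was at least 1.74-fold higher, being above background on no Control array, a call lost with normexp (0.06 on the log2 scale, adjusted p = 0.321 by limma). Igf1, the main growth hormone product of the liver, fell by 0.52 on the log2 scale (adjusted p = 0.00838 by limma), but the mean over its probes differed by -0.06 and did not pass (adjusted p = 0.772 by limma). The other gene of the list that fell was Stat5b, the transcription factor that carries the growth hormone signal, named after its value was seen. Stat5b differed by -0.29 (adjusted p = 0.0375 by limma), close to the threshold, and its call was not followed under the alternatives. Of the zonation markers 1 gene of each list passed: Lgr5, at least 3.5-fold higher, of 12 pericentral markers, and Aldh1b1, higher by 1.35, of 10 periportal markers. Among the pericentral values 8 were positive and 4 negative (median 0.12). Among the periportal values 3 were positive and 7 negative (median -0.09). Lgr5 was well above background on no Control array, and its bound is for the main scaling. The smallest log2 difference of Lgr5 among the alternatives was 0.59.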

How the data were processed

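Liver RNA of 4 Eucommia and 4 Control samples, 500 ng each, was measured on 1-colour Cy3 arrays, per the labels' protocols. The deposited intensity values are processed signals from Agilent Feature Extraction 10.1.1.1, with background subtraction and spatial detrending done array by array, per the file headers. Flags of another kind in the same deposited files mark control, outlier, saturated and well-above-background spots. No spot was saturated. The deposited series table was identical to these signals at 100% of 43379 spots outside the controls, uncentred and linear, with column medians of 26.3 to 32.05.

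Values used here are log2 signals minus each array's 75th percentile. Control and outlier spots were left out. Probes well above background on at least 4 of 8 arrays were kept (27717 of 41012), and a gene is its probe with the highest mean signal. Accessions were matched to RefSeq (GRCr8), which named 39.8% of probes; an unnamed probe stands as its own gene. limma 3.58.1 in R 4.3.3 tested all 25122 genes, 2-sided, with p-values adjusted by Benjamini-Hochberg and called under 0.05. In data simulated for this comparison over 25122 genes, 70% of genes with a log2 difference of 1 and 16% of those with 0.5 were called. The simulation left 24922 genes unchanged, while 24.6% of genes were called in the data. The adjustment was therefore stricter in the simulation, and its rates do not give those of the data. The 4 arrays per group limit the precision, and nothing but the numbering says that each array is a separate rat, so the p-values reflect only how these samples vary, which may be technical.

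A gene above background on no Control array is given as a lower bound, its Eucommia mean against the higher of its own Control signal and the lowest signal well above background on each array. Bounds for lists were added after values were seen. They hold for the main scaling only, and genes given as bounds passed the filter through their Eucommia arrays alone. Named genes are members past the test, without overlap, brightest of a subfamily or with probes of opposite sign, and in each other list at most 4 past the test and 2 others by smallest p. Por, Alas1, Nr1i2, Nr1i3, Cyp2c and Cyp2d members, Cyp1a1 and undetected markers are named beyond that rule for their known roles. Members, lists and rules were chosen with earlier results of these data known. Alternatives changed the scaling, background correction, filter, gene summary and fit, or left out 1 array. The alternative named normexp took median signals, corrected their background with an offset of 50 and then quantile normalized them. Its steps were not tested apart. The deposited series table, also run as an alternative, repeats the main differences, as does the mean over probes for a gene with 1 probe.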

Additional observations from a re-analysis of the deposited data

Results flagged for a closer look

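In 9 of 172 groups of 4 arrays, 3 of them among the 60 groups of the members, 1 array stood apart from the other 3 by a gap, relative to the group's range, above Dixon's 95% critical value. Chance marks about 1 group in 20. All values are log2 signals minus the array's 75th percentile.

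Cyp2a2 stood at 2.95 on Control 2, below the other Control arrays, the highest of which was at 3.44. Cyp2t1 stood at 1.73 on the same array, against 1.45 to 1.47. Cyp2r1 stood at -1.44 on Eucommia 3, against -1.49 on each of the other Eucommia arrays, a gap of little size. Among other genes, Nqo1 stood at -2.83 on Eucommia 4 against -1.68 to -1.64, Cyb5b at 1.96 on Eucommia 4 against 2.49 to 2.56, and Kdr at 6.16 on Eucommia 4 against 5.95 to 5.98. Lgr5 stood at -3.23 on Eucommia 3 against -2.28 to -2.23. Ttr stood at 9.75 on Control 2 against 9.64 to 9.65, and Nr3c1 at 3.43 on Control 4 against 2.87 to 2.88.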

How the results depend on the processing

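Over 22 alternatives Cyp2s1 stayed higher and Cyp2j3 lower, so the count of members higher was 1 throughout. The count of members lower, 2 in the main setting, was 1 with quantile normalization, cyclic loess, normexp and the replicate block, 5 with array weights and 8 with median centring, which added Cyp2a1, Cyp2c7, Cyp2c22, Cyp2c23, Cyp2r1 and Cyp3a2; it ran from 1 to 3 on leaving out 1 array. Genes of the other lists that fell, 8 in the main setting, numbered 49 with median centring, 14 without a filter on dim probes, 13 with trended robust variances and 3 to 9 without 1 array. Over all genes 4621 of 25122 rose, 2318 of 20096 when every array had to be above background and 4020 to 4602 without 1 array. The 1550 genes that fell became 2955 with quantile normalization, 7953 with median centring, 2433 with cyclic loess and 2715 with normexp. They were 7380 of 37707 genes tested without a filter, 987 with the replicate block and 912 to 1337 without 1 array. Median centring moved the median of the members to -0.29, of Cyp2c to -0.47, of Cyp2d to -0.20 and of Cyp3a to -0.32, and normexp moved that of Cyp2c to 0.023. Without 1 array the members' median ran from -0.10 to -0.021 and that of Cyp2c from -0.30 to -0.076. The filter and the arrays left out set how many genes or samples enter; for the other settings the cause was not tested.

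Replicate numbers equal the position number in each array's slide barcode, in both groups, so a replicate block is also a block of position. Same-numbered arrays correlated at -0.10 to -0.03 in their deviations from the group means, and none correlated best with its own number. With the number as a replicate block Cyp2b3 had an adjusted p of 0.0981 by limma. The calls of Nr1h4, Foxa2, Nr3c1, Cyp4a3 and Prss2 were also lost under it. Higher genes made up 62.7% of all calls with the filter on all 8 arrays and 42.2% with none. Signal over background limits Cyp2s1 and Cyp2j10, and Cyp2j10 has no value where all 8 arrays had to be above background.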
